A study of Rattus norvegicus with 10 samples.

Results

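Sds, Tat, Hpd, Hal, Prodh, Oat and Shmt1 are 7 hepatic genes of serine, tyrosine, histidine, proline, ornithine and glycine breakdown, out of 14217 genes measured in rat liver. They were chosen by their place in amino acid catabolism and by an earlier reading of the diet comparison in these same livers, where no amino acid gene differed more than Sds. Their diet differences are therefore descriptions, and counts of calls among them are printed without being read. All 8 probe sets that the platform's gene table gives to these genes alone were taken, 2 of them for Prodh and 1 for each other gene.

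The livers came from 10 male rats aged 13 weeks, with 1 array per liver. In the seasoned group (N-group, animals 1, 4, 7, 10 and 13) the food for 30 days was made up of instant noodle to 30 wt% and had 26% of its energy as fat. In the unseasoned group (C-group, animals 2, 5, 8, 11 and 14) the rats received that diet lacking its seasonings, so the noodle and the fat were common to both. Both were pair-fed about 60 g of diet per kg body weight daily with free water and 12 h of light. The values are deposited log2 signals, so that 1 unit is a doubling of signal, and the levels of the 7 genes are not set against each other.

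Breakdown of amino acids in liver can send their carbon into glucose synthesis and their nitrogen into urea. Serine dehydratase (Sds) turns serine into pyruvate and ammonia. It is a periportal enzyme that glucagon, glucocorticoids and protein-rich food induce strongly in rat liver. Tyrosine aminotransferase (Tat) takes the first step of tyrosine breakdown and is a textbook glucocorticoid target, and 4-hydroxyphenylpyruvate dioxygenase (Hpd) takes the next. Histidine ammonia-lyase (Hal) opens histidine breakdown, proline dehydrogenase (Prodh) opens proline breakdown, and ornithine aminotransferase (Oat) links ornithine with the proline and glutamate pool. Cytosolic serine hydroxymethyltransferase (Shmt1) interconverts serine and glycine while charging folate with a one-carbon unit.

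Promoter windows from 250 bases before to 50 bases after the annotated start were taken from RefSeq on GRCr8 for the 4 of the 7 genes that matched, Tat, Hpd, Oat and Shmt1. The 2 windows below are shown as examples with matches to elements of daily and basal transcription. The Oat window also held matches and is not shown. Clock genes are among the lists compared below. Capitals mark the E-box, spelled CACGTG, in Shmt1 (chr10:45990292-45990591, minus strand) and CCAAT on either strand in Tat (chr19:54856354-54856653, plus strand).
Shmt1: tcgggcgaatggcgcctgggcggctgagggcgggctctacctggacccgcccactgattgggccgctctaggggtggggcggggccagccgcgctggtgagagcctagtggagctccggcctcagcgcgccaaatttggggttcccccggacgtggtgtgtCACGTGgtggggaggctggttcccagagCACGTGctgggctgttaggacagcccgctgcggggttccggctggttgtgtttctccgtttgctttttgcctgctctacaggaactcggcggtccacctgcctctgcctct
Tat: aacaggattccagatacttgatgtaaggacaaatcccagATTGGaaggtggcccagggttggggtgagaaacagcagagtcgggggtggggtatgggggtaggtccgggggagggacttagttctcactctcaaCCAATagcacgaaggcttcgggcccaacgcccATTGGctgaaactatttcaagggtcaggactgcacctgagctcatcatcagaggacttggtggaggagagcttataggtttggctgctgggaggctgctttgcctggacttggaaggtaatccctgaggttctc

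Shmt1 held 2 E-boxes, which begin 89 and 61 bases before its start. An E-box was present in 6.42% of 33469 promoter windows of this length, and 0.520% held 2 or more. The windows of Tat, Hpd and Oat held 0. Tat held 3 CCAAT matches, Oat 2 and Shmt1 1, the last not capitalised above, where 37.5% of all windows held at least 1 and 11.2% held 2 or more. The glucocorticoid half-site AGAACA (20.7% of windows), the D-box TTATGTAA bound by Dbp (0.893%) and the full cAMP element TGACGTCA (1.83%) had 0 matches in these 4 windows on both strands, and the cAMP half-site TGACG (21.2%), which overlaps the full element, had 1 match, in Oat. A match of letters does not show that a factor binds there, and 0 matches in so short a window do not show that a gene lacks the element elsewhere.

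Sds had the second largest difference in size among the 2613 genes whose SD over the 10 arrays was above 0.01 (called varying genes below), behind Dbp alone. Its log2 signal was 6.83, 6.80, 7.44, 7.58 and 9.02 in seasoned animals 1, 4, 7, 10 and 13, and 9.97, 8.94, 10.03, 9.07 and 9.79 in unseasoned animals 2, 5, 8, 11 and 14. Of the seasoned livers 4 lay below all controls, and seasoned animal 13 lay above the lowest control, animal 5, so that the groups overlapped by that 1 liver. The mean was 7.54 ± 0.90 in seasoned and 9.56 ± 0.52 in unseasoned livers (SD, n = 5 each), a difference of -2.03 ± 0.46 (SE), or 0.245 of the unseasoned signal. Seasoned animals 1 and 4 were close to the array medians of 6.47 to 6.48, and detection calls were not used, so the size of the difference is uncertain. In whole liver, fewer cells of a type or zone and less RNA per cell cannot be told apart.

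**Figure D1:**
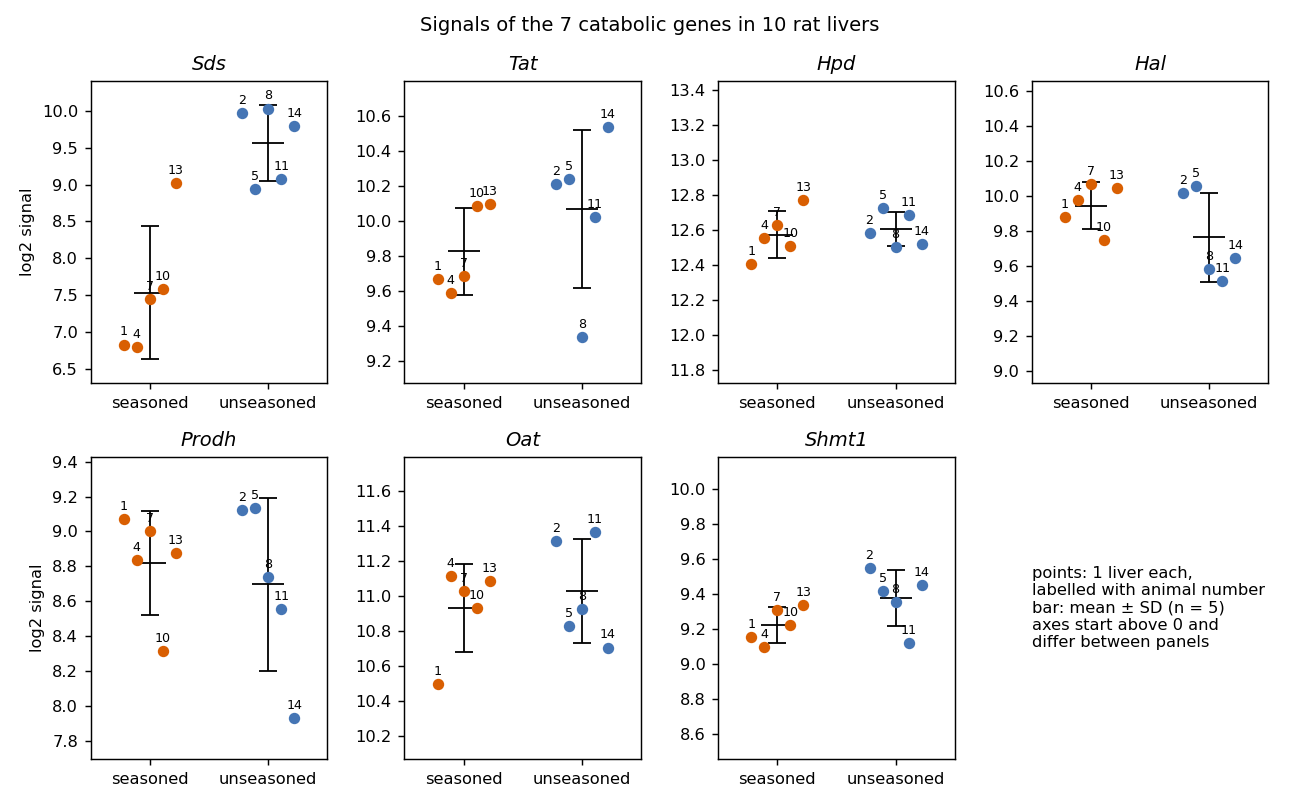
Log2 signal of each of the 7 genes in 5 seasoned and 5 unseasoned livers, 1 point per liver labelled with its animal number, with mean and SD; the vertical axes differ between panels and do not start at 0. Sds had 4 seasoned livers under all controls, with animal 13 at 9.02 above animal 5 at 8.94. In Shmt1 all controls but animal 11, at 9.12, lay above all seasoned livers. The groups overlapped more broadly in the remaining genes.

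Within the seasoned group Sds was the most spread of the 7, with a range of 2.23 log2 units, against 1.09 among controls. Its SD in the seasoned group, 0.90, was also larger than that of any other of these genes in either diet, the next being Prodh among controls at 0.49. Leaving out animal 13 gave a difference of -2.40, and leaving out any 1 of the 10 livers gave values between -2.40 and -1.84. Sdsl, which encodes the related serine dehydratase-like enzyme, had 7.45 ± 0.06 in seasoned and 7.46 ± 0.09 in unseasoned livers (SD, n = 5 each), a difference of -0.01 ± 0.05 (SE).

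Tat and Hpd, of tyrosine breakdown, differed far less. Tat was at 9.66, 9.59, 9.68, 10.09 and 10.10 in seasoned animals 1, 4, 7, 10 and 13, and at 10.21, 10.24, 9.33, 10.02 and 10.54 in unseasoned animals 2, 5, 8, 11 and 14. The highest control was animal 14 and the lowest value of all 10 belonged to control animal 8, so the seasoned range lay inside that of the controls. The means were 9.82 ± 0.25 in seasoned and 10.07 ± 0.45 in unseasoned livers (SD, n = 5 each), with a difference of -0.24 ± 0.22 (SE). Without control animal 8 this difference was -0.43, and without control animal 14 it was -0.13. Hpd, the enzyme after Tat, ran from 12.41 to 12.77 in seasoned and from 12.51 to 12.73 in unseasoned livers, with a difference of -0.03 ± 0.07. Its 2 groups lay on top of each other, and its direction turned to 0.01 without seasoned animal 1.

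Shmt1, of serine and glycine interconversion, had a small negative difference. Shmt2, the other measured serine hydroxymethyltransferase gene, had a positive one of 0.13 ± 0.10 (SE, n = 5 each). Shmt1 had 9.15, 9.10, 9.31, 9.22 and 9.34 in seasoned animals 1, 4, 7, 10 and 13, and 9.55, 9.41, 9.35, 9.12 and 9.45 in unseasoned animals 2, 5, 8, 11 and 14. All controls but animal 11 lay above all seasoned livers. The means were 9.22 ± 0.10 in seasoned and 9.38 ± 0.16 in unseasoned livers (SD, n = 5 each), with a difference of -0.15 ± 0.08 (SE), and without control animal 11 it was -0.22.

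Hal of histidine breakdown and Prodh of proline breakdown had positive differences within the spread of the livers. Hal was at 9.88, 9.98, 10.07, 9.75 and 10.05 in seasoned animals 1, 4, 7, 10 and 13, and at 10.02, 10.06, 9.58, 9.52 and 9.65 in unseasoned animals 2, 5, 8, 11 and 14. Control animals 2 and 5 matched the seasoned livers, and controls 8, 11 and 14 lay below all of them. The difference was 0.18 ± 0.13 (SE), with means of 9.95 ± 0.13 in seasoned and 9.77 ± 0.25 in unseasoned livers (SD, n = 5 each). Prodh was at 9.07, 8.83, 9.01, 8.32 and 8.88 in seasoned animals 1, 4, 7, 10 and 13, and at 9.13, 9.14, 8.74, 8.56 and 7.93 in unseasoned animals 2, 5, 8, 11 and 14. Its lowest liver was control animal 14, without which the difference of 0.12 ± 0.25 turned to -0.07. The other Prodh probe set hardly varied and stood at 5.95 in all 10 livers, with a difference of -2.1e-05.

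Oat, which in rat liver is abundant in the perivenous zone, had its lowest liver among the seasoned and its highest among the controls. Its signal ran from 10.50 in seasoned animal 1 to 11.12 in seasoned animal 4, and from 10.71 in control animal 14 to 11.37 in control animal 11. The means were 10.93 ± 0.25 in seasoned and 11.03 ± 0.30 in unseasoned livers (SD, n = 5 each), with a difference of -0.10 ± 0.17 (SE) that turned to 0.01 without seasoned animal 1.

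By limma over all 14217 genes, 0 of the 7 passed the adjusted p threshold of 0.05 and were called, as were 0% of all genes. When only the varying genes were fitted, 0 of the 7 were called, beside 0.153% of varying genes. At an unadjusted p under 0.05 there was 1 of the 7, namely Sds, beside 4.71% of all genes and 11.6% of varying genes. The values of the diets did not overlap in 0 of the 7, beside 2.72% of varying genes. Limma with array weights, with an intensity trend or with a covariate also called 0 of the 7. Since the genes were picked with this comparison known, nothing is read from these counts. Of the 7 differences 5 were negative and 2 positive, with a median of -0.10, where the median over all varying genes was 0.02. Positive differences were held by 1497 of the 2613 varying genes and negative ones by 1116.

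Animals 1 to 7 and animals 8 to 14 are known from earlier results of these data to part in many genes, although the labels name no such batch. The diet difference of Sds was -2.43 within animals 1 to 7 (3 seasoned, 2 unseasoned) and -1.33 within animals 8 to 14 (2 seasoned, 3 unseasoned), and -1.88 with this parting as a block. Without seasoned animal 13 the value within animals 8 to 14 was -2.05. For Tat it was -0.58 and 0.13, for Hal -0.06 and 0.32, and for Prodh -0.16 and 0.19. Shmt1 had -0.30 and -0.03, Hpd -0.12 and 0.07, and Oat -0.19 and 0.01. Sds and Shmt1 thus had negative differences in both sets, and the other 5 changed sign; whether the sets differ in their response to diet was not tested.

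**Figure D2:**
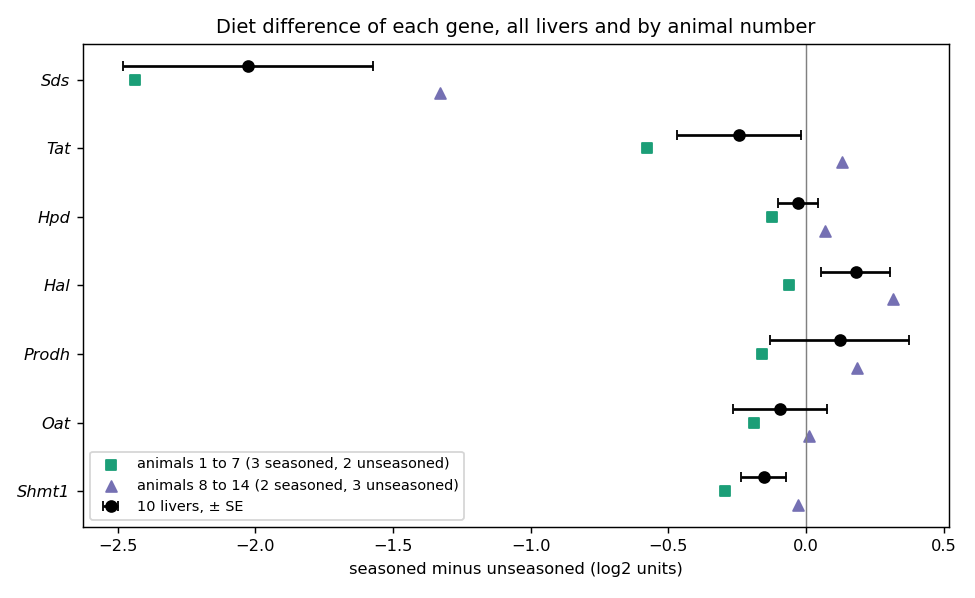
Seasoned minus unseasoned difference in log2 units for each of the 7 genes, over all 10 livers with its SE (circles), within animals 1 to 7 (squares) and within animals 8 to 14 (triangles). Sds lay at -2.03, -2.43 and -1.33, and the other genes lay between -0.58 and 0.32.

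Prodh and Hal also differed by animal number, in the same direction in both diets. Prodh in animals 8 to 14 differed from animals 1 to 7 by -0.37 among seasoned and -0.72 among unseasoned livers. Hal differed by -0.08 among seasoned and -0.46 among unseasoned livers. Sds instead was higher in the later animals, by 1.28 among seasoned livers (0.56 without animal 13) and by 0.17 among unseasoned ones. Array position follows animal number within each diet, and all seasoned arrays carry the letter A and all unseasoned ones the letter B in their sample codes, so that an effect of that letter and of diet cannot be told apart.

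Within the diets, the highest of 6 correlations of Sds with the other genes was that with Shmt1. After each diet's mean was subtracted, the Pearson r of Sds with Shmt1 over the 10 livers was 0.614 (exact two-sided permutation within the diets, p = 0.0343, adjusted p = 0.206 over 6 relations) and Spearman's rho was 0.636 (exact permutation p = 0.0578, adjusted p = 0.347). The relation thus did not pass the adjustment. Without the 2 livers farthest from the median of Sds, r was 0.533, and centred also on the animal-number sets it was 0.791 (adjusted p = 0.125 by exact permutation). For Tat, Hpd, Hal, Prodh and Oat, r lay between -0.138 and 0.325, with adjusted p between 0.785 and 0.795 by exact permutation. Without the 2 livers farthest in Sds, r turned negative, to -0.108 for Tat, -0.295 for Hpd and -0.080 for Hal. It was 0.243 for Oat and -0.289 for Prodh. Spearman's rho over all 10 livers was 0.382 for Tat, 0.030 for Hpd and -0.042 for Hal.

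**Figure D3:**
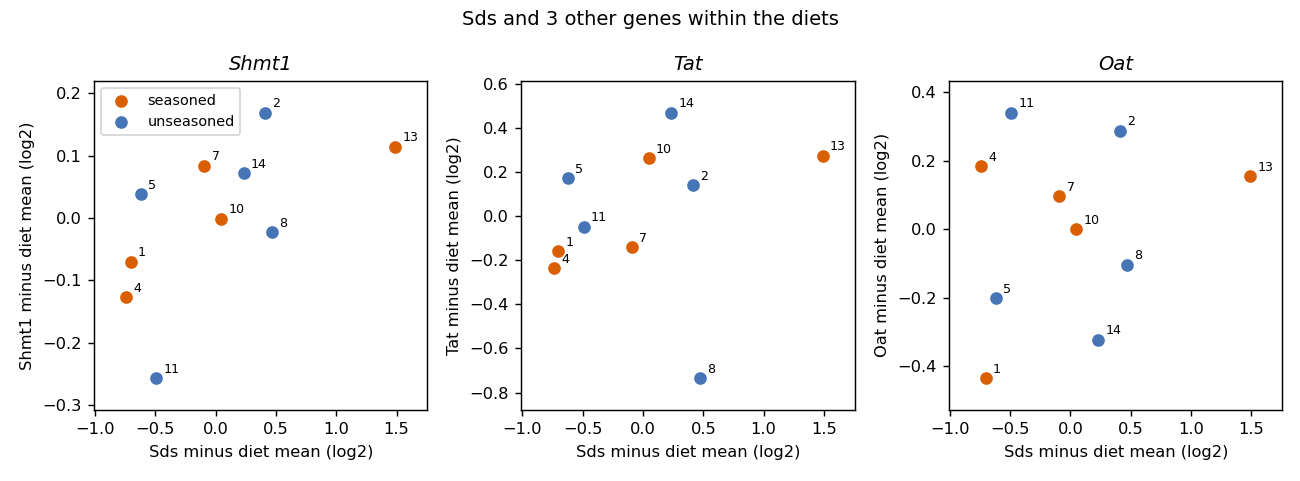
Log2 signals of Shmt1, Tat and Oat, each minus its diet mean, against Sds minus its diet mean, for 5 seasoned and 5 unseasoned livers labelled with animal number. Seasoned animal 13 is the liver farthest to the right in each panel, and r over the 10 livers was 0.614 for Shmt1, 0.214 for Tat and 0.211 for Oat.

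The genes whose diet-centred pattern over the 10 livers was most like that of Sds, of 2612 varying genes compared, were Lrrc8b (r = 0.911), a subunit of volume-regulated anion channels, Pdhb (0.899), a subunit of pyruvate dehydrogenase, the cochaperone gene Dnaja1 (0.897), Nae1 (0.896), which activates NEDD8, and Pdk1 (0.895), a kinase that inhibits pyruvate dehydrogenase. The most opposite were Inpp4a (-0.937), a phosphoinositide phosphatase, Aldh1a1 (-0.895), a retinaldehyde dehydrogenase, Zfp36l1 (-0.885), an mRNA decay factor, glycerol kinase (Gk, -0.885) and Lasp1 (-0.875), an actin-binding protein. Without the 2 livers farthest in Sds these values were 0.728, 0.683, 0.767, 0.720 and 0.901 for the like genes in that order, and -0.833, -0.757, -0.653, -0.798 and -0.696 for the opposite ones. These are the extremes of many correlations and carry no test. None of these 10 genes shared the diet difference of Sds, with differences between -0.03 (Zfp36l1) and 0.32 (Aldh1a1).

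Neighbouring enzymes of the same pathways gave 0 calls by limma over all genes or among varying genes, beside 0% of all genes and 0.153% of varying genes. Nothing is read from these counts of 0. At an unadjusted p under 0.05 lay 4.71% of all genes and 11.6% of varying genes. In serine, glycine and threonine metabolism, 0 of 19 other measured genes passed in either direction, and 1 was higher at an unadjusted p under 0.05. That gene was Cth, the cystathionine lyase of cysteine synthesis, with a mean of 12.05 in seasoned and 11.76 in unseasoned livers and a difference of 0.30 ± 0.11 (SE, n = 5 each). Of 13 varying members 9 had positive differences, with a median of 0.15, beside 1497 positive of all 2613 varying genes. Amt of the glycine cleavage system had 0.16 ± 0.09. In phenylalanine and tyrosine metabolism 0 of 7 passed, also without adjustment, and the median of 5 varying members was -0.02. Gch1, which starts synthesis of the tetrahydrobiopterin cofactor, had a difference of -0.15 ± 0.07, Hgd, which follows Hpd in the pathway, had 0.19 ± 0.10, and Gstz1, the maleylacetoacetate isomerase, had -0.02 ± 0.03.

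In histidine and folate one-carbon metabolism 0 of 13 passed and 1 was higher without adjustment, beside the same shares of all and of varying genes. All 6 varying members had positive differences with a median of 0.09, beside 1497 positive of all 2613 varying genes. The gene higher without adjustment was Mthfd1, the trifunctional cytosolic folate enzyme, at 10.04 in seasoned and 9.74 in unseasoned livers, a difference of 0.29 ± 0.12. In proline and ornithine metabolism 0 of 8 passed, also without adjustment, and the median of 5 varying members was -0.09. Aldh4a1, which acts after Prodh, had a difference of 0.11 ± 0.06. Psph, Mtr, Mthfd2, Aldh18a1 and P4ha1 were near-constant, with differences between -0.00049 and 0.00044, which are not read as a lack of response. In the remaining breakdown of amino acids 0 of 18 passed, also without adjustment, and the median of 12 varying members was 0.02. Afmid of the kynurenine path had 0.21 ± 0.12. Dbt and Pcca, of branched-chain amino acid and propionyl-CoA breakdown, were near-constant at 0.00014 and 0.00020 and are likewise not read.

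Genes of the hormonal and fasting control of these enzymes had mostly negative differences. Of 19 measured members 0 passed over all genes by limma, beside 0% of all genes. In the fit of varying genes 1 fell, beside 0.153% of varying genes, namely Klf9, a transcription factor gene that glucocorticoids induce. At an unadjusted p under 0.05 there were 5 lower and 0 higher, where 4.71% of all genes and 11.6% of varying genes lay under that p in either direction. Klf9 was at 9.31, 9.08, 8.87, 9.42 and 9.07 in seasoned animals 1, 4, 7, 10 and 13, and at 9.96, 10.11, 10.49, 9.76 and 10.09 in unseasoned animals 2, 5, 8, 11 and 14, without overlap, as in 2.72% of varying genes. Its difference was -0.93 ± 0.15 (SE, n = 5 each; adjusted p = 0.0398 by limma among varying genes and 0.431 over all genes). With the mean of its probe sets in place of the brightest one it was -0.44. In the 2 animal-number sets it was -0.94 (1 to 7) and -0.87 (8 to 14).

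Cebpa and Cebpb encode C/EBP factors that drive many liver genes of amino acid and glucose metabolism. Cebpa was at 9.70, 9.31, 9.46, 9.61 and 9.72 in seasoned animals and at 9.93, 10.12, 9.85, 9.92 and 10.21 in unseasoned animals, in the same order of livers, again without overlap. Its difference was -0.45 ± 0.10, and that of Cebpb was -0.47 ± 0.13, with overlapping groups. Neither passed among varying genes (adjusted p = 0.0888 for Cebpa and 0.121 for Cebpb by limma). Pck1, the gluconeogenic phosphoenolpyruvate carboxykinase, had -0.17 ± 0.07, and Tdo2, the glucocorticoid-inducible tryptophan dioxygenase, had -0.19 ± 0.07. Nr3c1, the glucocorticoid receptor, had -0.31 ± 0.15, and the glucagon receptor gene Gcgr had -0.08 ± 0.14. Differences were positive for Igfbp1, a fasting-induced binding protein of insulin-like growth factors (0.29 ± 0.35), and for the hepatocyte factor gene Hnf4a (0.12 ± 0.17). The glucocorticoid target gene Fkbp5 and Per1 were near-constant at 0.0012 and -0.00034, and values this flat cannot show whether a gene responded. The median over 13 varying members was -0.19, where that over all varying genes was 0.02.

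Amino acid carriers gave 0 calls of 12 by limma in either fit, beside 0% of all genes and 0.153% of varying genes. At an unadjusted p under 0.05 there were 1 higher and 2 lower, beside 4.71% of all genes and 11.6% of varying genes. Slc1a4, a carrier of serine and alanine, was at 6.57 ± 0.05 in seasoned and 6.31 ± 0.18 in unseasoned livers (SD, n = 5 each), close to the array medians. Its difference was 0.26 ± 0.08 (SE), with no overlap, as in 2.72% of varying genes. Slc38a2, a sodium-coupled neutral amino acid carrier, had -0.44 ± 0.15, and Slc43a1, a carrier of branched-chain amino acids, had -0.40 ± 0.16.

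**Figure D4:**
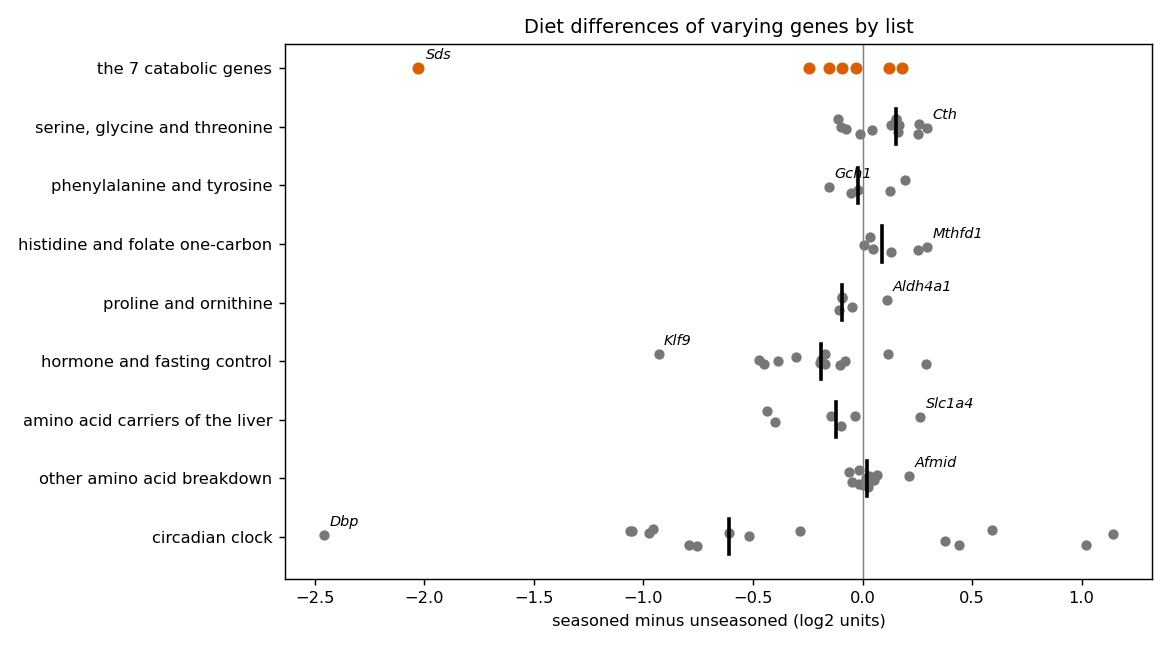
Seasoned minus unseasoned difference in log2 units of the varying genes of 8 lists (grey, 1 point per gene, bar at the list's median) and of the 7 catabolic genes (orange). Sds at -2.03 lay apart from the enzymes of its own pathway, and Dbp at -2.46 was the most negative gene drawn.

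Clock genes were read beside Sds. Of 17 measured clock genes 0 passed by limma over all genes or among varying genes, beside 0% of all genes and 0.153% of varying genes. At an unadjusted p under 0.05 there were 4 higher and 7 lower, beside 4.71% of all genes and 11.6% of varying genes. The direction of these genes was known from earlier results of these data. The rhythmic transcription factor gene Dbp was at 5.97, 5.94, 6.03, 7.05 and 6.94 in seasoned animals 1, 4, 7, 10 and 13, and at 9.08, 9.44, 9.32, 7.28 and 9.09 in unseasoned animals 2, 5, 8, 11 and 14. Its lowest 3 livers, animals 1, 4 and 7, were also the lowest for Sds. These 3 Dbp values lay below the array medians of 6.47 to 6.48, so the size of the Dbp difference is uncertain. Control animal 11, nearest to the seasoned livers in Dbp, was the second lowest control in Sds, while the lowest control in Sds, animal 5, had the highest Dbp of all 10 livers. The activators Bmal1 and Clock had differences of 1.14 ± 0.21 and 0.37 ± 0.07. Bmal1 had an unseasoned mean of 6.33, also below the array medians. The part of clock time in the Sds difference was not tested.

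Markers of liver zones and other cells were read beside Sds. Of 10 periportal hepatocyte markers 9 varied, 3 with a positive and 6 with a negative difference. Without Sds and Hal, the mean log2 level of the other 8 ran from 11.56 to 11.62 in seasoned and from 11.50 to 11.72 in unseasoned livers, and Pck1 alone of them was under an unadjusted p of 0.05. Of these markers, Cps1, Ass1, Arg1 and Gls2 had differences of -0.09 ± 0.13, -0.03 ± 0.10, -0.11 ± 0.10 and -0.05 ± 0.17. Those of Cyp2f4 and Cdh1 were positive, at 0.14 ± 0.12 and 0.07 ± 0.07, as was that of Hal given above. Pericentral hepatocyte markers numbered 9, of which 6 varied, 3 with a positive and 3 with a negative difference. Without Oat, the mean log2 level of the other 8 ran from 9.08 to 9.24 in seasoned and from 8.95 to 9.20 in unseasoned livers. Cyp1a2, a drug-metabolizing P450, had a difference of 0.48 ± 0.17 and alone of these 8 was under an unadjusted p of 0.05. Among 7 hepatocyte markers 1 varied, Apoa1, the main apolipoprotein of high-density lipoprotein, with a difference of 0.23 ± 0.07 and no overlap, as in 2.72% of varying genes. Kupffer cell and macrophage markers, 8 genes, ran from 7.97 to 8.53 in seasoned and from 8.11 to 8.35 in unseasoned livers. Of the marker genes of any list 0 passed over all genes, beside 0% of all 14217 genes, so this count says nothing of cell composition. At an unadjusted p under 0.05 lay 4.71% of all genes and 11.6% of varying genes.

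The samples are labelled liver, although the extraction text speaks of brain. As a coarse check only, since probe sets differ in how strongly they respond, the 7 hepatocyte markers had a median level of 13.6 and the 7 brain markers one of 6.19, below the array medians. Mbp, the 1 brain marker that varied, lay above the array medians, with means of 7.38 in seasoned and 7.15 in unseasoned livers. Pairwise correlations between arrays ran from 0.990 to 0.998, and 0 pairs held identical values. Of all genes 18.4% varied by the threshold above, and all 7 catabolic genes were among them. Since each title carries its own animal number, the error behind each p-value is that between rats.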

How the data were processed

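Liver RNA of 10 rats was measured with 1 Affymetrix-type array each, from 100 ng of total RNA per the labels' protocols. The deposited table gives log2 signals, with the authors' summary and normalization not given in the sources used; base 2 was inferred from the range of 4.79 to 14.34. Of 31099 probe sets 57 were controls, 20826 had 1 gene in the platform table, 436 several and 9780 none. Gene identifiers gave current symbols from the GRCr8 gene table (20758 matched). The probe set with the highest mean stood for a gene. The within-group SD was under 0.001 for 86.2% of probe sets, so a near-constant gene is not read as one that did not respond.

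Seasoned and unseasoned livers, 5 each, were compared across all genes with limma 3.58.1 (lmFit, eBayes) in R 4.3.3, with Benjamini-Hochberg adjustment, after testing on simulated data. Detection calls were not used here, and depth is not defined for arrays, whose number limits the precision. The genes, lists, the threshold of 0.01 for varying genes and the parting of animals at 7 and 8 were chosen with earlier results of these data known. Named were all 7 genes, the 3 smallest p of each list, and the 5 most like and 5 most opposite genes to Sds. Sdsl, Shmt2, Tdo2, Pck1, Nr3c1, Gcgr, Igfbp1, Hnf4a, Fkbp5, Per1, Cps1, Ass1, Arg1, Gls2, Cyp2f4, Cdh1, Cyp1a2, Apoa1 and Mbp were named after their values were seen. Alternatives covered filters, probe set rules, normalization, variance models, covariates, a block and leaving out each liver; assumed pairs of neighbouring animals were added after seeing the data.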

Additional observations from a re-analysis of the deposited data

Results flagged for a closer look

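Of 94 groups of 5 livers (47 of the named varying genes, in both diets), 5 had 1 liver apart from the rest, by more than 0.71 times the whole range of the group, where chance gives about 1 in 20, or 4.7 if the groups were independent. None of the 7 catabolic genes was among them. Mthfd1 was low in seasoned animal 10 (9.85, nearest 10.06, ratio 0.855), as was Gcgr (8.61, nearest 8.98, ratio 0.947), and Inpp4a was low in seasoned animal 13 (6.95, nearest 7.73, ratio 0.724). Dbp was low in control animal 11 (7.28, nearest 9.08, ratio 0.834), and Bmal1 was high there (6.90, nearest 6.24, ratio 0.806).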

How the results depend on the processing

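The Sds difference stayed negative in all alternatives run, between -2.49 (array weights) and -1.84. Leaving out 1 liver turned the sign of 3 small differences, with ranges of -0.0797 to 0.0115 for Hpd, -0.0683 to 0.249 for Prodh and -0.176 to 0.0132 for Oat. The count of other pathway genes called was 1 among varying genes (Klf9) and between 0 and 1 with a liver left out (Dbp, without control animal 11), and 0 in the other alternatives run; 0 of the 7 genes were called in any of them. The correlation of Sds with Shmt1 ran from 0.547 to 0.697 with a liver left out, and passed only without control animal 5 (adjusted p = 0.0396 by exact permutation). Correlations with a liver left out ran from -0.041 to 0.714 for Tat, -0.436 to 0.529 for Hpd, -0.150 to 0.338 for Hal, -0.300 to 0.004 for Prodh and -0.033 to 0.403 for Oat. Centred on diet and animal-number set, those of Tat and Prodh were -0.132 and 0.351. Near-constant genes turned sign after quantile normalization and median centring, to -0.00232 and -0.00252 for Psph, -0.000311 and -0.00285 for Aldh18a1, -0.00284 and -0.00282 for P4ha1, and -0.00731 and -0.00282 for Dbt; Pcca was at -0.00277 after centring, and Gstz1 at 9.3e-05 with array weights. Centring shifts all genes of an array alike, which by construction turns differences this small. The cause of the other turns was not tested. The diets share no animal number; with neighbouring animals taken as pairs (1 with 2 to 13 with 14), an assumption added after seeing the data, Sds was lower in the seasoned animal of 5 of 5 pairs, with differences of -3.14 to -0.77, and 0 genes were called.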
